A study of Rattus norvegicus with 8 samples.

Results

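The genes described here are the chemokine ligands and chemokine receptors measured on 8 Agilent arrays of rat hippocampus after hypobaric hypoxia. They were chosen by name, as non-control probes whose gene symbol begins with Ccl, Cxcl, Ccr or Cxcr and a digit. This gave 49 genes on 53 probes, of 26214 gene names on 30367 probes. Total RNA came from the hippocampus of male Sprague Dawley rats, in 4 groups of 2 arrays. The normoxia rats served as controls. The other groups stayed in a decompression chamber at the pressure of 25000 ft, an effective 8% oxygen, and are labelled day 1, day 3 and day 7. The day 7 group carries 7 days in its title and 5 days in its exposure field, and is called day 7 here. The labels give no age, and are silent on whether the arrays that share a label stand for different animals. The p-values therefore reflect only how far arrays of the same group lay apart, which could be technical. The RNA is that of the whole dissected tissue, so fewer cells of a type and less RNA per cell cannot be told apart.

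Chemokines are small secreted proteins that guide leukocytes along a concentration gradient and act through G-protein-coupled receptors. The CC and CXC families are named for the spacing of their leading cysteines. In the brain, microglia, astrocytes and endothelium make inflammatory chemokines such as Ccl2, Ccl3, Ccl5 and Cxcl1 after injury, and neurons and vessels make Cxcl12 and Cxcl14 constitutively. Many inflammatory members are induced through NF-kB by Il1b and Tnf.

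The 60-base array probes of the genes whose changes stood out most on bright spots, or that moved in opposite directions to a neighbour, are printed below in lower case, with the array annotation's positions on rat genome build rn4. They show which stretch of each transcript the values come from. Ccl6 and Cxcl12 have 2 probes each, at different positions of the gene, and whether both read the same transcript was not tested. The Cxcr1 probe lies at chr9:73510547-73510606 on the minus strand, and the Ccl5 probe at chr10:71605854-71605913 on the minus strand. The Ccl6 probes lie at chr10:71660234-71660293 and chr10:71660623-71660682 on the minus strand. The Cxcl1 probe lies at chr14:18690468-18690527 and the Cxcl2 probe at chr14:18677165-18677224, both on the minus strand. The Cxcl12 probes lie at chr4:153510285-153510344, which represents the gene, and chr4:153516205-153516264, both on the plus strand.
Cxcr1 probe: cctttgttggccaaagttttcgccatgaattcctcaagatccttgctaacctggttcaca
Ccl5 probe: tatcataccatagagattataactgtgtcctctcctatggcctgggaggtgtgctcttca
Ccl6 probe, representing the gene: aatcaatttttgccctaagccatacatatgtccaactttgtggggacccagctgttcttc
Ccl6 other probe: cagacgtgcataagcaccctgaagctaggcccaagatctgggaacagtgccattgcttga
Cxcl1 probe: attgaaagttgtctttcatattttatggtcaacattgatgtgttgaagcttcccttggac
Cxcl2 probe: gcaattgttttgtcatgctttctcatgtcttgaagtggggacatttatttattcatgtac
Cxcl12 probe, representing the gene: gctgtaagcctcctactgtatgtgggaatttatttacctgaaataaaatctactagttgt
Cxcl12 other probe: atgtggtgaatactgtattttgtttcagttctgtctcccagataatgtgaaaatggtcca

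A level below is the log2 processed signal of a probe minus the 75th percentile of its array, so that a level of 0 is the signal at that percentile. A change is the difference of 2 group means of levels, in log2 units, with the standard error (SE) of 1 limma model over all 8 arrays. A gene was called when its Benjamini-Hochberg adjusted p over all 21296 genes tested was under 0.05. To be kept, a probe had to carry the scanner's well-above-background flag on the 2 arrays of some group, and 37 of the 49 genes had such a probe. Where neither array of a group was well above background, that group holds only a bound, and the change is given as "at least" a fold. That fold sets the mean of the brighter group against the dimmest signal that still carried the flag on the dim group's arrays, or the probe's own signal where that was higher. An adjusted p printed beside such a fold is that of the limma change in levels, dim signals included, and does not test the bound. The 3 comparisons with normoxia share the normoxia arrays.

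Across the arrays the 75th percentile of the signal came to 2684 and 2321 in normoxia, to 2214 and 2247 on day 1, then 1710 and 1566 on day 3, and 1407 and 1393 on day 7, and no spot was saturated. The flag was carried by 84.5% to 85.6% in normoxia, 80.6% to 82.1% on day 1, 75.7% on both day 3 arrays and 72.6% to 77.0% of spots on day 7. Normoxia and day 1 lay in 1 row of the slide and day 3 and day 7 in the other, so slide row and group cannot be told apart in the comparisons of day 3 and day 7 with normoxia or with day 1. Markers of neighbouring tissues differed between the groups. The summed linear level of 12 choroid plexus markers, in units of the 75th percentile, was 121.5 and 131.7 in normoxia, 1.98 and 2.04 on day 1, then 174.6 and 162.7 on day 3, and 10.9 and 10.1 on day 7, and all 12 were lower on day 1 and on day 7. For 12 striatal markers it was 7.97 and 7.94 in normoxia, 53.8 and 53.2 on day 1, then 6.62 and 6.76 on day 3, and 6.49 and 6.19 on day 7, and all 12 were higher on day 1. The hippocampal neuron markers were present on every array, with sums of 41.5 and 42.2 in normoxia, 34.6 and 33.8 on day 1, then 48.0 and 47.6 on day 3, and 46.6 and 48.4 on day 7. The day 1 arrays thus held striatal markers beside hippocampal ones, and every day 1 value below comes from those 2 arrays. The part of these differences in the chemokine results was not tested.

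The chemokine genes did not move as a block. On day 1, 14 of the 37 kept genes passed the test (37.8%), 7 higher and 7 lower, against 35.5% of all genes (15.3% higher and 20.2% lower). On day 3, 21 passed (56.8%), 11 higher and 10 lower, against 50.3% of all genes (24.2% higher and 26.2% lower). On day 7, 23 passed (62.2%), 15 higher and 8 lower, against 61.3% of all genes (31.5% higher and 29.7% lower). These shares lie near those of all genes, so the number of calls is no result about chemokines. Because a dim gene could be kept through the group in which it was bright, the counts are a description.

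Between consecutive groups the calls went both ways, and these counts too are a description. Day 3 against day 1 gave 15 calls (40.5%), 10 higher and 5 lower, beside 51.2% of all genes (28.2% higher and 23.0% lower). Day 7 against day 3 gave 14 calls (37.8%), 11 higher and 3 lower, beside 42.4% of all genes (24.2% higher and 18.3% lower). Against normoxia the kept genes had a median change of -0.21 on day 1, then -0.08 on day 3 and -0.28 on day 7, and that of all genes was -0.07, -0.05 and -0.03. Over the 20 chemokine genes well above background on all 8 arrays, the median changes were -0.02, 0.21 and 0.50. Of these 20, the calls were 7 higher and 3 lower on day 1, 11 higher and 2 lower on day 3, and 15 higher and 1 lower on day 7. In a fit of the 17570 genes well above background on all 8 arrays, 19.5% were higher and 24.7% lower on day 1, 30.7% higher and 27.7% lower on day 3, and 39.2% higher and 30.5% lower on day 7. Their median changes were -0.04, 0.01 and 0.05. In that same fit, the 20 chemokine genes gave 7 higher and 4 lower calls on day 1. They gave 11 higher and 2 lower on day 3, and 15 higher and 2 lower on day 7. The difference between these shares and the chemokine counts was not tested.

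**Figure D1:**
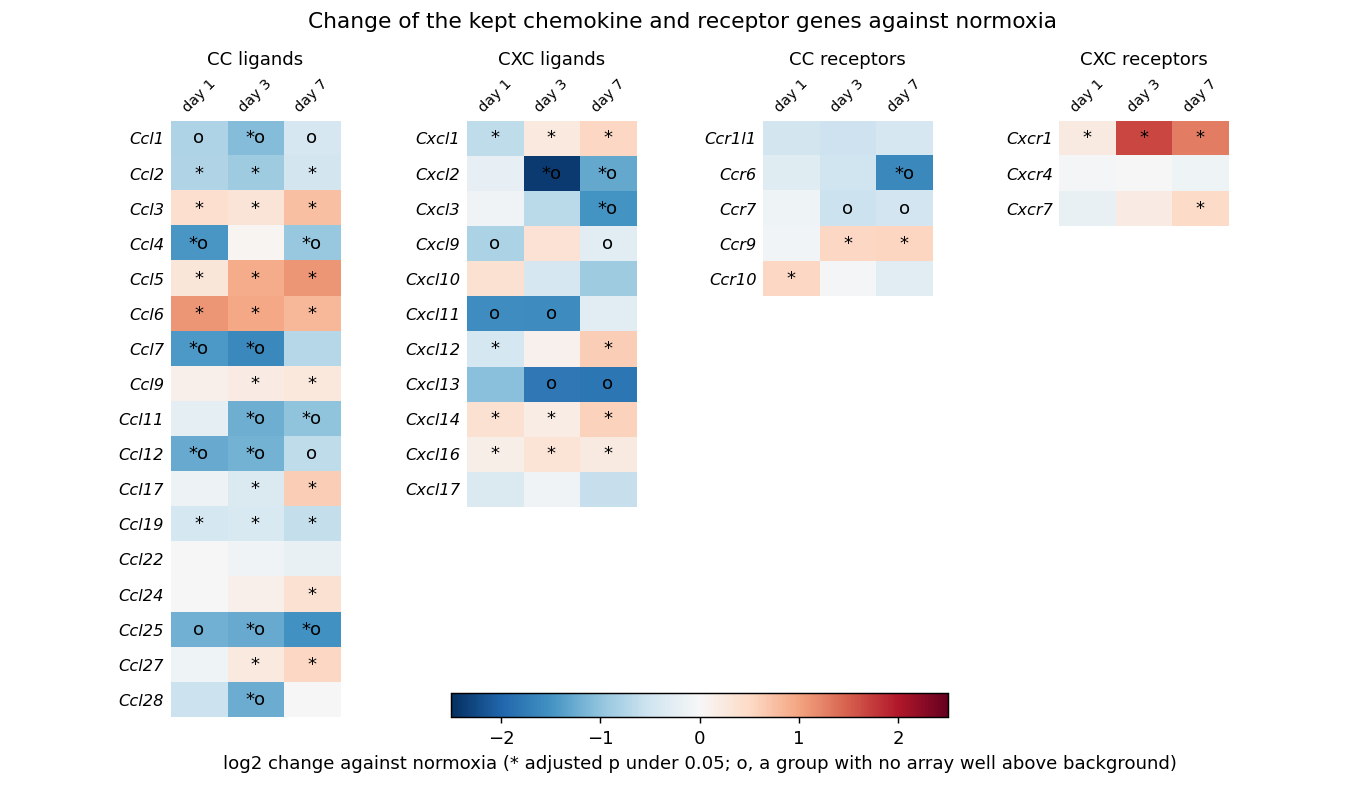
Change against normoxia (log2, colour scale) of 36 of the 37 kept chemokine genes on day 1, day 3 and day 7, grouped by role. A star marks an adjusted p under 0.05 and a circle a comparison with a group in which no array was well above background. Cxcr1, Ccl5 and Ccl6 are among the reddest cells and Cxcl2 on day 3 the bluest. Without scaling between arrays, most of the red cells turn to falls.

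The directions depended on how the arrays were brought to one scale, and this bears on every paragraph that follows. With no scaling, an alternative chosen after seeing the data, the median of all genes shifted to -0.23 on day 1, -0.66 on day 3 and -0.87 on day 7. The chemokine calls were then 1 higher (Ccl6) and 8 lower on day 1, 3 higher (Cxcr1, Ccl5 and Ccl6) and 26 lower on day 3, and 1 higher (Cxcr1) and 28 lower on day 7. Of all genes, 3.69% were then called higher and 18.0% lower on day 1, 1.70% higher and 73.5% lower on day 3, and 1.07% higher and 81.3% lower on day 7. Day 3 against day 1 gave 3 higher and 12 lower, and day 7 against day 3 gave 3 higher and 6 lower, with no scaling. Centring on the median moved the median of all genes to 0.10 on day 3 and 0.26 on day 7, and gave 14 chemokine genes higher and 7 lower on day 3, 13 higher and 2 lower for day 3 against day 1, and 14 higher and 1 lower for day 7 against day 3. Quantile normalization gave 11 higher and 4 lower on day 3, 14 higher and 4 lower on day 7, and 10 higher and 3 lower for day 3 against day 1. Normexp background correction moved the median of all genes to 0.13 on day 3 and 0.23 on day 7, and gave 19 higher and 1 lower on day 3, 30 higher and 1 lower on day 7, and 20 higher and 2 lower for day 3 against day 1. Rises and falls below are therefore relative to the 75th percentile of each array.

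Cxcr1 had the largest rise of any kept gene against normoxia, and it rose on the unscaled signal as well. Cxcr1 encodes a receptor for neutrophil-attracting CXC ligands and is known from neutrophils. Its levels were -4.03 and -3.93 in normoxia, -3.75 and -3.78 on day 1, then -2.36 and -2.27 on day 3, and -2.68 and -2.72 on day 7. All 4 day 3 and day 7 arrays lay above all 4 others, and the groups did not overlap. The change against normoxia was 1.67 on day 3 (SE 0.055, adjusted p = 8.0e-05), which is 3.18-fold, and 1.28 on day 7 (SE 0.055, adjusted p = 5.9e-05). Day 3 exceeded day 1 by 1.45 (adjusted p = 9.8e-05), and day 7 was lower than day 3 by a change of -0.39 (adjusted p = 0.0047). The day 1 rise of 0.22 (adjusted p = 0.031) was lost without normoxia array 1, day 1 array 1 or day 1 array 2, with changes of 0.17 to 0.27 and adjusted p up to 0.134. The processed signal was 332 and 326 on day 3 and 219 and 212 on day 7, against 164 and 152 in normoxia. Without scaling the changes were 1.06 on day 3 and 0.45 on day 7.

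Neutrophil markers had calls in both directions on each day. Their summed linear level over the 8 tested of 12 listed genes was 0.565 and 0.559 in normoxia, 0.888 and 0.944 on day 1, then 0.550 and 0.557 on day 3, and 0.637 and 0.649 on day 7. The sum was thus highest on day 1, and on day 3, when Cxcr1 was highest, it lay close to that of normoxia. Whether Cxcr1 is related to the number of neutrophils was not tested. Of these defining genes, Mpo was well above background on 0 arrays, Elane and Mmp8 on 1 each and Ltf on 2. The calls were 2 higher and 2 lower on day 1, 2 higher and 2 lower on day 3, and 2 higher and 3 lower on day 7.

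Among the other receptors, Ccr9 rose by a smaller amount and Cxcr4 was not called. Ccr9, the receptor for Ccl25 on gut-homing T cells and thymocytes, had levels of -1.57 and -1.47 in normoxia, -1.58 and -1.61 on day 1, then -1.02 and -0.98 on day 3, and -1.003 and -0.95 on day 7. All day 3 and day 7 arrays lay above all others. Ccr9 changed by 0.52 on day 3 (SE 0.050, adjusted p = 0.0010) and 0.54 on day 7 (adjusted p = 0.00047), and by -0.08 on day 1 (adjusted p = 0.29). Day 3 exceeded day 1 by 0.60 (adjusted p = 0.00063), and these called changes of Ccr9 held in every fit that left out 1 array. Without scaling, Ccr9 had -0.09 on day 3 and -0.29 on day 7.

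Cxcr4, the signalling receptor for Cxcl12, had levels of -2.92 and -3.47 in normoxia, -3.29 and -3.15 on day 1, then -3.25 and -3.15 on day 3, and -3.28 and -3.34 on day 7. The normoxia arrays spanned all the others. Its changes were between -0.11 and -0.01 (SE 0.18), with adjusted p from 0.63 to 0.98. Cxcr7, now named Ackr3, an atypical receptor that takes up Cxcl12, changed by 0.48 on day 7 (SE 0.089, adjusted p = 0.0062), and by -0.18 on day 1 and 0.20 on day 3, neither called. Day 3 exceeded day 1 by 0.39 for Cxcr7 (adjusted p = 0.016), which was lost without either array of day 1 or day 3, with adjusted p up to 0.0779. Ccr10, the receptor for Ccl27 and Ccl28, changed by 0.52 on day 1 (SE 0.099, adjusted p = 0.014), which was lost without normoxia array 1 or either day 1 array, with changes of 0.44 to 0.59 and adjusted p up to 0.0688. Ccr10 then changed by -0.56 in day 3 against day 1 (adjusted p = 0.0068), and was not called on day 3 or day 7 against normoxia (-0.04 and -0.29).

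Ccr6, the receptor for Ccl20 on lymphocytes and dendritic cells, was dim. Its levels were -6.47 and -5.96 in normoxia, -6.78 and -6.23 on day 1, then -6.33 and -7.09 on day 3, and -7.66 and -7.99 on day 7. No day 7 array was well above background, and both lay below all others. Ccr6 was at least 2.08-fold lower on day 7 than in normoxia (adjusted p = 0.011), a call lost without normoxia array 2 or day 7 array 2 (adjusted p up to 0.0578). The Ccr6 changes of -0.29 on day 1 and -0.50 on day 3 were not called. Normexp background correction gave Ccr6 changes of 0.37 on day 3 and 0.36 on day 7. Ccr7, the receptor for Ccl19 and Ccl21, and Ccr1l1, a rodent relative of Ccr1, were not called in any comparison. Ccr7 changed by -0.10 on day 1 (SE 0.56), and neither array of day 3 or day 7 was well above background, with adjusted p = 0.46 and 0.49 against normoxia. Ccr1l1 changed by -0.46, -0.52 and -0.42 on day 1, day 3 and day 7 (SE 0.31).

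A set of CC ligands that lie side by side on chromosome 10 rose over the exposure with different timing, relative to the 75th percentile. They are Ccl5, Ccl6, Ccl9 and Ccl3, ligands of Ccr1. Without scaling only Ccl5 on day 3 and Ccl6 on day 1 and day 3 were still called higher among them. Ccl5, which attracts T cells and monocytes, had levels of -2.82 and -2.80 in normoxia, -2.48 and -2.53 on day 1, then -1.86 and -1.89 on day 3, and -1.65 and -1.74 on day 7. The 4 groups did not overlap, and each later group lay above the one before it. Ccl5 changed by 0.31 on day 1 (SE 0.045, adjusted p = 0.0062), 0.94 on day 3 (adjusted p = 0.00018) and 1.11 on day 7 (adjusted p = 5.4e-05), which is 2.16-fold. The step from day 1 to day 3 was 0.63 (adjusted p = 0.00041). That from day 3 to day 7 was 0.18 (adjusted p = 0.029) and was called in 1 of the 8 fits that left out 1 array, namely without day 7 array 2, with changes of 0.13 to 0.22 and adjusted p up to 0.118. Without scaling, Ccl5 changed by 0.33 on day 3 (adjusted p = 0.034) and by -0.05 in day 7 against day 3.

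Ccl6 rose at once. It is a myeloid-cell attractant described in mouse and rat. Its levels were -3.81 and -3.74 in normoxia, -2.66 and -2.68 on day 1, then -2.88 and -2.74 on day 3, and -2.93 and -2.96 on day 7. All 6 exposed arrays lay above both normoxia arrays. Ccl6 changed by 1.105 on day 1 (SE 0.058, adjusted p = 0.00029), 2.15-fold, by 0.97 on day 3 (adjusted p = 0.00029) and by 0.83 on day 7 (adjusted p = 0.00020). The consecutive changes of -0.14 and -0.13 were not called (adjusted p = 0.10 and 0.13). The other Ccl6 probe had levels of -4.99 and -5.02 in normoxia, -3.79 and -3.76 on day 1, then -3.95 and -3.96 on day 3, and -4.21 and -4.15 on day 7, with changes of 1.23, 1.05 and 0.83. Both probes therefore moved in the same order. On the unscaled signal Ccl6 changed by 0.94 on day 1 (adjusted p = 0.0021) and 0.36 on day 3 (adjusted p = 0.012), and by 0.00 on day 7.

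Ccl3, also called MIP-1 alpha and made by activated microglia and macrophages, had levels of -4.97 and -5.10 in normoxia, -4.61 and -4.61 on day 1, then -4.64 and -4.78 on day 3, and -4.27 and -4.31 on day 7. Every exposed array lay above both normoxia arrays, and day 7 above all others. Ccl3 changed by 0.43 on day 1 (SE 0.069, adjusted p = 0.0081) and 0.75 on day 7 (adjusted p = 0.00047), and day 7 exceeded day 3 by 0.42 (adjusted p = 0.0072). Its day 3 change of 0.33 (adjusted p = 0.012) was lost without normoxia array 2 (adjusted p = 0.0564). Ccl9, a myeloid ligand of Ccr1 in mouse, changed by 0.21 on day 3 and 0.27 on day 7 (SE 0.059, adjusted p = 0.031 and 0.011), and by 0.13 on day 1, not called. The Ccl9 day 3 call was lost without any array of normoxia or day 3 (0.19 to 0.24, adjusted p up to 0.125), and the day 7 call without normoxia array 1 (adjusted p = 0.0509). Without scaling, Ccl3 had -0.28 on day 3 and -0.09 on day 7, and Ccl9 had -0.40 and -0.56.

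Ccl4, the MIP-1 beta partner of Ccl3, did not follow it in levels taken without normexp background correction. Its levels were -7.12 and -6.98 in normoxia, -8.06 and -8.95 on day 1, then -6.83 and -7.17 on day 3, and -7.99 and -8.00 on day 7. Neither array of day 1 or day 7 was well above background, and 1 of 2 was on day 3. Ccl4 was kept through its normoxia arrays alone, which favours a fall. With normexp background correction its changes were -0.05 on day 1, not called, and 0.50 on day 7. Without that correction, Ccl4 was at least 1.99-fold lower on day 1 than in normoxia (adjusted p = 0.017). On day 7 it was at least 1.17-fold lower than in normoxia (adjusted p = 0.041). It was at least 2.06-fold higher on day 3 than on day 1 (adjusted p = 0.010) and at least 1.21-fold lower on day 7 than on day 3 (adjusted p = 0.047). The day 1 call was lost without either normoxia array, the call of day 3 against day 1 without day 3 array 1, and both day 7 calls without any array of normoxia, day 3 or day 7, with adjusted p up to 0.171.

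**Figure D2:**
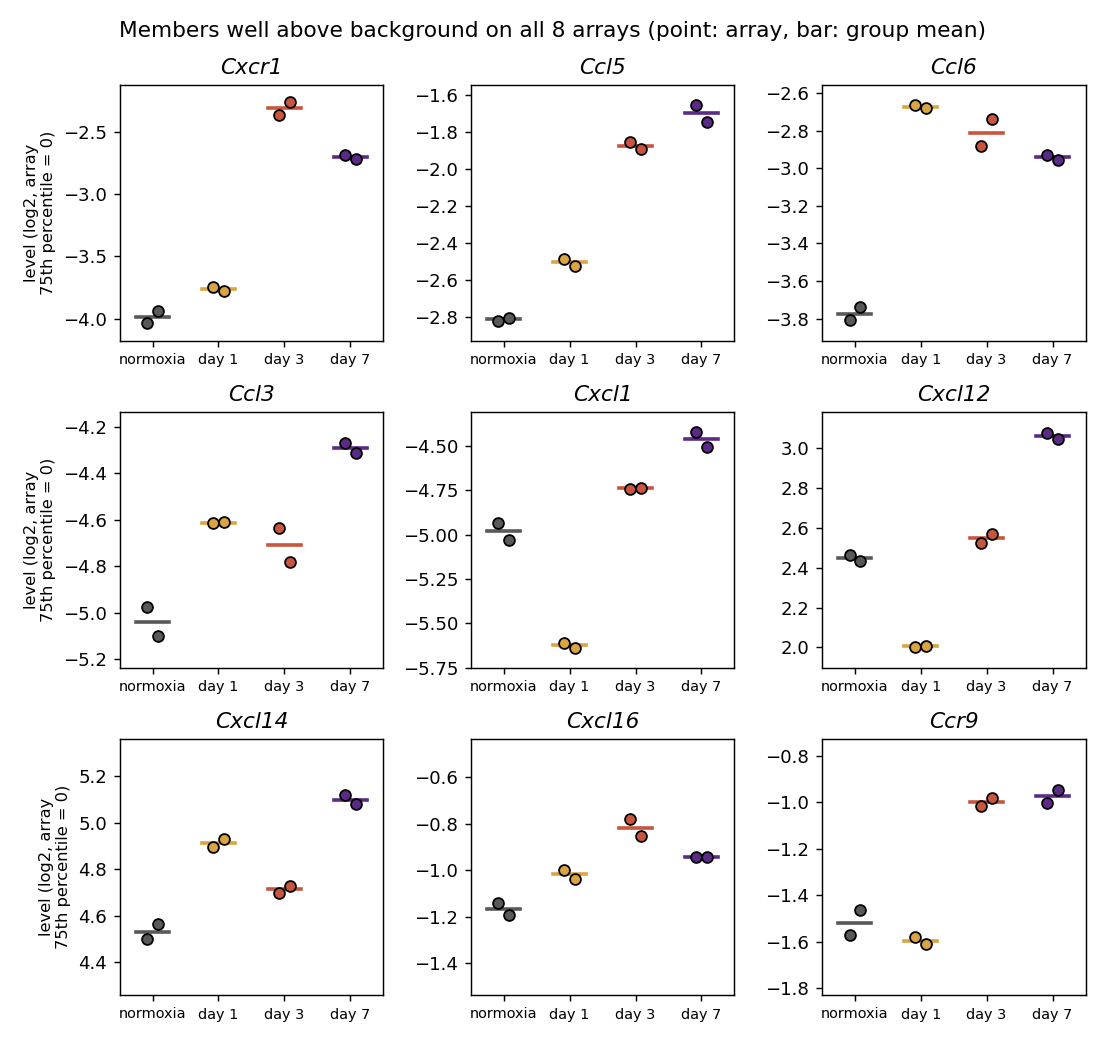
Level (log2, relative to the 75th percentile) of Cxcr1, Ccl5, Ccl6, Ccl3, Cxcl1, Cxcl12, Cxcl14, Cxcl16 and Ccr9 in normoxia and on day 1, day 3 and day 7. Points are single arrays, 2 per group, and bars are group means. Cxcr1 steps up on day 3, Ccl6 on day 1, and Cxcl1 and Cxcl12 dip on day 1 and lie highest on day 7. Without scaling between arrays the day 7 means of Cxcl1, Cxcl12, Cxcl14, Cxcl16, Ccl3 and Ccr9 lie below normoxia.

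The monocyte and eosinophil attractants of the neighbouring gene run fell relative to the 75th percentile or were too dim to follow. With normexp background correction they did not fall on day 3 or day 7. Ccl2, or MCP-1, attracts monocytes through Ccr2. Its levels were -5.19 and -5.29 in normoxia, -6.03 and -5.95 on day 1, then -6.11 and -6.14 on day 3, and -5.68 and -5.72 on day 7. All exposed arrays lay below both normoxia arrays, and day 7 lay between the earlier days and normoxia. Ccl2 changed by -0.75 on day 1 (SE 0.052, adjusted p = 0.00068), -0.88 on day 3 (adjusted p = 0.00028) and -0.46 on day 7 (adjusted p = 0.00099), and by 0.43 in day 7 against day 3 (adjusted p = 0.0030). These calls held in every fit that left out 1 array. The day 7 call was lost with quantile normalization (-0.07, adjusted p = 0.408), and that of day 7 against day 3 with the authors' values (0.18, adjusted p = 0.235), with an intensity trend in the prior (adjusted p = 0.0773) and without scaling (0.20, adjusted p = 0.325). Its probe was printed 10 times on each array, and 1 of the 2 arrays was well above background on day 3 and on day 7. With normexp background correction, Ccl2 had 0.06 on day 3 and 0.29 on day 7.

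Ccl7, a monocyte attractant close to Ccl2, had levels of -6.48 and -6.53 in normoxia, -8.50 and -7.40 on day 1, then -7.90 and -8.35 on day 3, and -7.02 and -7.43 on day 7. Every exposed array lay below normoxia. Ccl7 was at least 2.21-fold lower on day 1 (adjusted p = 0.039) and at least 1.75-fold lower on day 3 (adjusted p = 0.020). The day 1 call held in 1 of the 8 fits that left out 1 array, namely without day 1 array 2, and the day 3 call was lost without either normoxia array or day 3 array 2 (adjusted p up to 0.137 and 0.0875). The day 7 change of -0.72 was not called (adjusted p = 0.17).

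Ccl12, an MCP-type ligand known from mouse, had levels of -6.80 and -7.23 in normoxia, -8.42 and -8.12 on day 1, then -8.36 and -8.04 on day 3, and -7.90 and -7.42 on day 7. No exposed array was well above background. Ccl12 was at least 1.998-fold lower on day 1 (adjusted p = 0.014), lost without normoxia array 1 or day 1 array 1 (adjusted p up to 0.0768), and at least 1.23-fold lower on day 3 (adjusted p = 0.012), lost without normoxia array 1 or day 3 array 1 (adjusted p up to 0.0569). Ccl11, the eosinophil attractant eotaxin, had levels of -6.98 and -6.34 in normoxia, -7.03 and -6.76 on day 1, then -7.54 and -8.20 on day 3, and -7.74 and -7.60 on day 7. Day 3 and day 7 lay below the other arrays. Ccl11 was at least 1.58-fold lower on day 3 (adjusted p = 0.022) and at least 1.53-fold lower on day 7 (adjusted p = 0.033) than in normoxia, and at least 1.34-fold lower on day 3 than on day 1 (adjusted p = 0.043). The day 3 call was lost without normoxia array 2 or day 3 array 2. The day 7 call was lost without normoxia array 2 or any array of day 1 or day 7, and that of day 3 against day 1 without day 3 array 2 or any array of day 1 or day 7 (adjusted p up to 0.170). Ccl1, a Ccr8 ligand, was at least 1.23-fold lower on day 3 (adjusted p = 0.046), with no call on day 1 (adjusted p = 0.14) or day 7 (adjusted p = 0.33). Its day 3 change was called in 3 of the 8 fits that left out 1 array, being lost without normoxia array 1 or any array of day 1 or day 3 (adjusted p up to 0.175).

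Dim probes were mostly lower on the exposed arrays. Among all genes, those in the dimmest decile of mean level had a median change of -0.40 on day 1, -0.63 on day 3 and -0.65 on day 7, and those in the brightest decile had -0.01, 0.18 and 0.36. Ccl1, Ccl4, Ccl7, Ccl11, Ccl12, Ccl25, Ccl28, Cxcl2, Cxcl3 and Ccr6 lay in that dimmest decile, and each was kept through its normoxia arrays, which favours falls against normoxia. Ccr6 and Cxcl2 had both day 1 arrays well above background too. Dim genes did not all fall, and Ccl4 on day 3 and Ccl28 on day 7 had changes of 0.05 and 0.00, neither called. With normexp background correction Ccl1, Ccl7, Ccl11, Ccl12 and Ccl25 had changes of 0.23 to 0.36 on day 3.

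**Figure D3:**
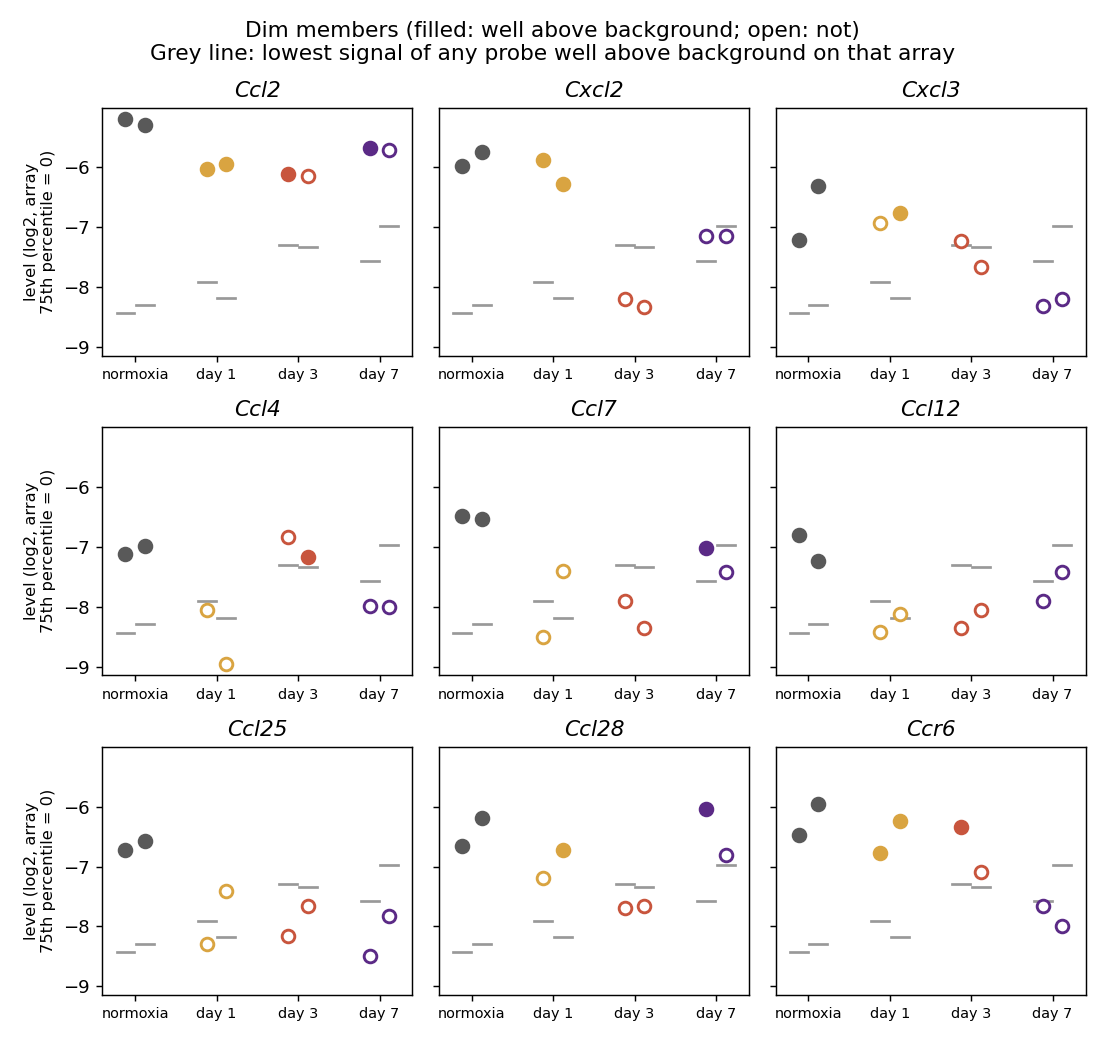
Level (log2, relative to the 75th percentile) of the dim ligands Ccl2, Cxcl2, Cxcl3, Ccl4, Ccl7, Ccl12, Ccl25 and Ccl28 and of the receptor Ccr6, by array. Filled points were well above background, open points were not, and the grey line is the lowest level called well above background on each array. Cxcl2 was measured in normoxia and on day 1 and lies below the grey line on both day 3 arrays. With normexp background correction, Ccl2, Ccl7, Ccl12, Ccl25, Ccl28, Cxcl3 and Ccr6 lie higher on day 3 than in normoxia. On day 7, Ccl2, Cxcl2, Cxcl3, Ccl4, Ccl7, Ccl12, Ccl25 and Ccr6 then lie higher.

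The remaining CC ligands are known mainly from lymphoid and barrier tissues. Ccl19, the Ccr7 ligand that positions T cells and dendritic cells, had levels of -0.30 and -0.33 in normoxia, -0.71 and -0.79 on day 1, then -0.70 and -0.69 on day 3, and -0.93 and -0.89 on day 7. All exposed arrays lay below normoxia, with day 7 lowest. Ccl19 changed by -0.43 on day 1, -0.38 on day 3 and -0.60 on day 7 (SE 0.041, adjusted p = 0.0016, 0.0014 and 0.00019). The change of -0.22 in day 7 against day 3 (adjusted p = 0.011) was lost without day 3 array 2 (adjusted p = 0.0526). Ccl27, a skin-associated ligand of Ccr10, had levels of 2.15 and 2.14 in normoxia, 2.05 and 2.03 on day 1, then 2.41 and 2.39 on day 3, and 2.69 and 2.65 on day 7. Day 3 and day 7 lay above all other arrays. Ccl27 changed by 0.25 on day 3 (SE 0.034, adjusted p = 0.0029) and 0.53 on day 7 (adjusted p = 0.00016), and by -0.36 and -0.31 without scaling. A probe of Il11ra1 lies 1011 bases from the Ccl27 probe on the opposite strand.

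Ccl17 and Ccl22 are the Ccr4 ligands that attract regulatory and type 2 helper T cells. Ccl17 had levels of -4.82 and -4.89 in normoxia, -4.89 and -5.08 on day 1, then -5.18 and -5.26 on day 3, and -4.24 and -4.22 on day 7. Day 3 lay below all other arrays and day 7 above them. Ccl17 changed by 0.62 on day 7 (SE 0.074, adjusted p = 0.0012) and by 0.99 in day 7 against day 3 (adjusted p = 0.00092). Its day 3 change of -0.37 (adjusted p = 0.011) was lost without normoxia array 1 or day 3 array 2 (adjusted p up to 0.0574). The change of -0.24 in day 3 against day 1 (adjusted p = 0.046) held in 1 of the 8 fits, without day 1 array 2, with -0.33 to -0.14 and adjusted p up to 0.170. Ccl22 was not called in any comparison, with changes of 0.00, -0.08 and -0.18 (SE 0.23).

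Ccl24, another eotaxin, changed by 0.38 on day 7 (SE 0.056, adjusted p = 0.0025), with -0.01 on day 1 and 0.13 on day 3, not called, and -0.45 on day 7 without scaling. Its change of 0.26 in day 7 against day 3 (adjusted p = 0.018) was lost without either array of day 3 or day 7 (adjusted p up to 0.0805). Ccl25, the Ccr9 ligand of thymus and gut, had levels of -6.72 and -6.58 in normoxia, -8.30 and -7.40 on day 1, then -8.16 and -7.66 on day 3, and -8.49 and -7.83 on day 7, and no exposed array was well above background. Ccl25 was kept through its normoxia arrays alone, which favours a fall. With normexp background correction its changes were 0.25 on day 3 and 0.48 on day 7. Without that correction, Ccl25 was at least 1.59-fold lower on day 3 than in normoxia (adjusted p = 0.041). On day 7 it was at least 1.54-fold lower than in normoxia (adjusted p = 0.019). Both calls were lost without either normoxia array, the day 3 call also without either day 3 array and the day 7 call also without day 7 array 1 (adjusted p up to 0.157 and 0.0838). Ccl28, a mucosal Ccr10 ligand, had levels of -6.65 and -6.20 in normoxia, -7.19 and -6.72 on day 1, then -7.69 and -7.66 on day 3, and -6.03 and -6.81 on day 7, and day 3 lay below all others. Ccl28 was also kept through its normoxia arrays alone, and its day 3 change was 0.20 with normexp background correction. Without that correction, Ccl28 was at least 1.85-fold lower on day 3 than in normoxia (adjusted p = 0.024). It was at least 1.86-fold higher on day 7 than on day 3 (adjusted p = 0.028). Both calls were lost without either day 3 array, the call against normoxia also without normoxia array 2 and the call of day 7 also without day 7 array 1 (adjusted p up to 0.110).

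The neutrophil-attracting CXC ligands Cxcl1 and Cxcl2, neighbours on chromosome 14, went in opposite directions on day 3 and day 7 relative to the 75th percentile, but not without scaling, where both had changes below 0. Cxcl1 had levels of -4.93 and -5.03 in normoxia, -5.61 and -5.64 on day 1, then -4.74 and -4.74 on day 3, and -4.42 and -4.50 on day 7. Day 1 lay below all other arrays and day 7 above them. Cxcl1 changed by -0.64 on day 1 (SE 0.051, adjusted p = 0.00097) and 0.52 on day 7 (adjusted p = 0.00058), by 0.88 in day 3 against day 1 (adjusted p = 0.00024), by 1.16 in day 7 against day 1, where 62.3% of all genes were called, and by 0.28 in day 7 against day 3 (adjusted p = 0.010). Its day 3 change of 0.24 against normoxia (adjusted p = 0.013) was lost without normoxia array 2 or either day 3 array (0.19 to 0.29, adjusted p up to 0.0561). Without scaling the day 3 and day 7 changes were -0.37 and -0.31.

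Cxcl2 had levels of -5.98 and -5.75 in normoxia, -5.87 and -6.28 on day 1, then -8.19 and -8.32 on day 3, and -7.15 and -7.14 on day 7. It was well above background on all arrays of normoxia and day 1 and on none of day 3 and day 7. Cxcl2 was at least 2.74-fold lower on day 3 (adjusted p = 0.00034) and at least 2.29-fold lower on day 7 (adjusted p = 0.0012) than in normoxia, and at least 2.36-fold lower on day 3 than on day 1 (adjusted p = 0.00038). Day 7 against day 3 was among the calls, but both groups were dim and no fold is given. The day 1 change of -0.21 was not called (adjusted p = 0.34). With normexp background correction the day 7 change of Cxcl2 was 0.28. Cxcl3, another ligand of this kind, had levels of -7.21 and -6.32 in normoxia, -6.93 and -6.76 on day 1, then -7.22 and -7.67 on day 3, and -8.32 and -8.19 on day 7, where both arrays lay lowest and neither was well above background. Cxcl3 was at least 1.42-fold lower on day 7 than in normoxia (adjusted p = 0.010). It was kept through its normoxia arrays alone, which favours a fall, and its day 7 change was 0.47 with normexp background correction. The other Cxcl3 probe was well above background on 1 array.

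The promoters of Cxcl1 and Cxcl2 are shown because the changes of this pair differed in sign and both carry an NF-kB match. They are RefSeq sequences on build GRCr8, from 250 bases before to 50 after the gene start, at chr14:17479272-17479571 for Cxcl1 and chr14:17467206-17467505 for Cxcl2, both on the minus strand. Capitals mark NF-kB consensus matches. In each promoter 2 overlapping matches were found, starting 84 and 83 bases before the start of Cxcl1 and 74 and 73 bases before that of Cxcl2.
Cxcl1 promoter: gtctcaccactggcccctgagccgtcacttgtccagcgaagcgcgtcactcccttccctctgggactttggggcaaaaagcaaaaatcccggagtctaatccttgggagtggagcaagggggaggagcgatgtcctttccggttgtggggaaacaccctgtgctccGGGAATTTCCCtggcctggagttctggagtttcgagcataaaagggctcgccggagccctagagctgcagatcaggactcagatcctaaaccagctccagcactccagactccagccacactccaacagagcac
Cxcl2 promoter: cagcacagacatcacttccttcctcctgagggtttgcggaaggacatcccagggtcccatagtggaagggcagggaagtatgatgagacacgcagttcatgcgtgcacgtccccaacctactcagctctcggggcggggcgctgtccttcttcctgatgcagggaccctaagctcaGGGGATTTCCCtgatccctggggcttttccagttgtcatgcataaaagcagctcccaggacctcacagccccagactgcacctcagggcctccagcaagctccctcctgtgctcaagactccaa

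Of the 49 genes, 36 had a promoter in the RefSeq table. Searched on both strands, the NF-kB consensus was found in 9 of these 36, against 7.51% of all 33469 promoters of the same length. The interferon-stimulated response element was found in 2 of 36, against 3.92% of all. The core of the hypoxia response element, ACGTG or GCGTG, was found in 14 of 36, against 41.6% of all. A match is a description of the letters and not a binding site.

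The interferon-induced ligands of Cxcr3 were not called in any comparison. These are Cxcl9, Cxcl10 and Cxcl11, which attract activated T cells. Cxcl10 had levels of -4.77 and -4.95 in normoxia, -4.84 and -4.11 on day 1, then -5.82 and -4.75 on day 3, and -4.92 and -6.60 on day 7. The 2 arrays of day 3 and of day 7 lay far apart, and each exposed group overlapped normoxia. The changes of Cxcl10 were 0.38, -0.43 and -0.90 on day 1, day 3 and day 7, each with an SE of 0.66. Cxcl9 changed by 0.36 on day 3 (SE 0.40) and Cxcl11 by -0.29 on day 7 (SE 0.55). On day 1 neither was well above background, and neither change was called by limma (adjusted p = 0.20 for Cxcl9 and 0.084 for Cxcl11). Of the 3 ligands, 1 had an unadjusted p under 0.05 on day 1, 1 on day 3 and 0 on day 7.

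The constitutive CXC ligands were the brightest chemokine spots together with Ccl24 and Ccl27, and Cxcl12 and Cxcl14 rose on day 7 relative to the 75th percentile but not without scaling. Cxcl12, or SDF-1, which guides neuronal precursors and holds progenitor cells in place, had levels of 2.46 and 2.43 in normoxia, 2.002 and 2.01 on day 1, then 2.52 and 2.57 on day 3, and 3.08 and 3.04 on day 7. Day 1 lay below every other array and day 7 above. Cxcl12 changed by -0.44 on day 1 (SE 0.036, adjusted p = 0.0010) and 0.61 on day 7 (adjusted p = 0.00013), by 0.54 in day 3 against day 1 (adjusted p = 0.00033) and by 0.51 in day 7 against day 3 (adjusted p = 0.00080). Its day 3 change of 0.10 was not called (adjusted p = 0.073). The other Cxcl12 probe had levels of 1.86 and 1.82 in normoxia, 1.43 and 1.39 on day 1, then 2.24 and 2.19 on day 3, and 2.36 and 2.35 on day 7. Its changes were -0.43, 0.37 and 0.51, so the probes matched in direction and differed in size on day 3. The other probe had most of its day 7 rise by day 3, and the probe representing the gene had little of it. The timing of the rise therefore depended on the probe. Without scaling the day 7 change of the gene was -0.22.

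Cxcl14, a ligand made by brain interneurons, had levels of 4.50 and 4.56 in normoxia, 4.90 and 4.93 on day 1, then 4.70 and 4.73 on day 3, and 5.12 and 5.08 on day 7. All exposed arrays lay above normoxia. Cxcl14 changed by 0.38 on day 1 (SE 0.040, adjusted p = 0.0022) and 0.57 on day 7 (adjusted p = 0.00020), and by 0.39 in day 7 against day 3 (adjusted p = 0.0020). Its day 3 change of 0.18 (adjusted p = 0.015) was lost without normoxia array 1 or day 3 array 2 (adjusted p up to 0.0699) and was -0.02 with quantile normalization. The change of -0.20 in day 3 against day 1 (adjusted p = 0.011) was lost without day 1 array 2 or day 3 array 1 (adjusted p up to 0.0641). Without scaling, Cxcl14 had -0.43 on day 3 and -0.27 on day 7.

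Cxcl16, a membrane-bound ligand of Cxcr6 that is also a scavenger receptor, had levels of -1.14 and -1.19 in normoxia, -0.998 and -1.04 on day 1, then -0.78 and -0.85 on day 3, and -0.94 and -0.94 on day 7. All exposed arrays lay above normoxia, with day 3 highest. Cxcl16 changed by 0.35 on day 3 (SE 0.043, adjusted p = 0.0020) and 0.23 on day 7 (adjusted p = 0.0065). Its day 1 change of 0.15 (adjusted p = 0.046) was lost without any 1 of the 8 arrays, with changes of 0.13 to 0.17 and adjusted p up to 0.192. The change of 0.20 in day 3 against day 1 (adjusted p = 0.013) was lost without day 1 array 2 or day 3 array 1 (adjusted p up to 0.0742). Without scaling Cxcl16 had -0.26 and -0.61 on day 3 and day 7, and a probe of Med11 lies 1013 bases away on the opposite strand. Cxcl13, the B-cell attractant, and Cxcl17, a mucosal ligand, were not called in any comparison, with changes of -1.04 for Cxcl13 on day 1 (SE 0.89) and of -0.37, -0.08 and -0.58 for Cxcl17 on day 1, day 3 and day 7 (SE 0.28). No day 3 or day 7 array measured Cxcl13 well above background (adjusted p = 0.16 and 0.14).

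Another 12 genes had no kept probe. Ccl21, Ccl26, Ccr2, Cxcl5, Cxcr5 and Cxcr6 were well above background on 0 of 8 arrays. Ccr1, Ccr3, Ccr4, Ccr8 and Cxcr3 were so on 1 array each, and Ccl20 on 2 arrays for 1 of its probes. Receptors of several ligands described above, such as Ccr2 for Ccl2 and Ccr1 for Ccl3 and Ccl6, were thus below what these arrays could measure. The accession of Cxcl5 now carries the symbol Cxcl6.

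The calls of genes that lie side by side are given by run, as a description. Ccl2, Ccl7, Ccl11, Ccl12 and Ccl1 lie at chr10:70257919-70380740 on rn4, and gave 3 lower calls on day 1, 5 on day 3 and 2 on day 7, with 0 higher. Of these, Ccl1, Ccl7, Ccl11 and Ccl12 were kept through the normoxia arrays alone, so that falls were favoured before the test. With normexp background correction all 5 had changes above 0 on day 3. Ccl5, Ccl9, Ccl6, Ccl3 and Ccl4 lie at chr10:71605854-71760324 and gave 3 higher and 1 lower on day 1, 4 higher and 0 lower on day 3, and 4 higher and 1 lower on day 7. Ccl4 was also kept through the normoxia arrays alone, and Ccl3 and Ccl9 had changes below 0 on day 3 and day 7 without scaling. Of all genes, 15.3% were called higher and 20.2% lower on day 1, 24.2% higher with 26.2% lower on day 3, and 31.5% higher with 29.7% lower on day 7. The difference between the runs was not tested. Cxcl11, Cxcl10 and Cxcl9 at chr14:17252192-17288890 gave 0 limma calls in either direction. No chemokine probe shared 20 bases with a probe of another gene.

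**Figure D4:**
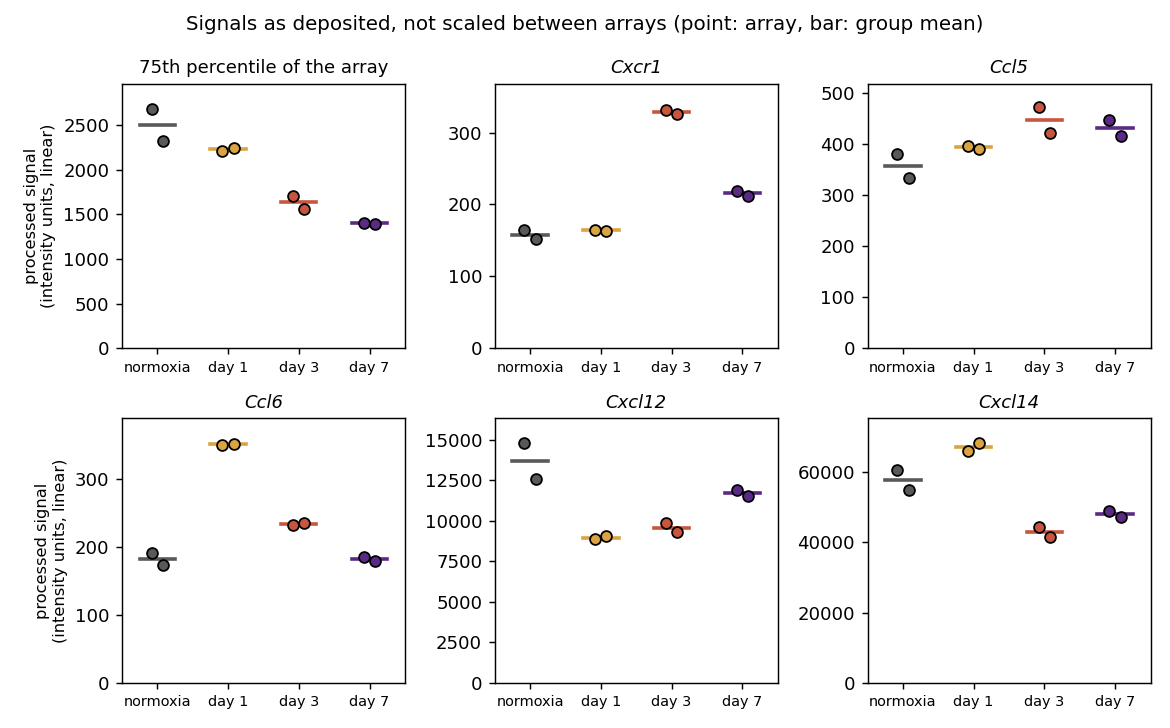
Processed signal before scaling (linear axis from 0) of the array's 75th percentile, Cxcr1, Ccl5, Ccl6, Cxcl12 and Cxcl14, with 1 point per array. The 75th percentile falls to 1407 and 1393 on day 7, against 2684 and 2321 in normoxia, and Cxcr1 rises to 332 and 326 on day 3, against 164 and 152 in normoxia. Ccl5 lies between 333 and 472 on all arrays.

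Other genes of the pathway were read from lists of further ligands and receptors, signalling genes and inducers. Their counts, like those of the cell markers further on, are descriptions to be read beside the shares of all genes called, which were 15.3% higher and 20.2% lower on day 1, 24.2% higher and 26.2% lower on day 3, and 31.5% higher and 29.7% lower on day 7. Of 10 further chemokine ligands and related attractants, 7 were tested, with 2 higher and 2 lower on day 1, 3 higher and 1 lower on day 3, and 3 higher and 3 lower on day 7. Pf4, a platelet chemokine, had levels of -3.33 and -3.30 in normoxia, -2.52 and -2.57 on day 1, then -0.92 and -0.92 on day 3, and -1.86 and -2.00 on day 7. All exposed arrays lay above normoxia, and day 3 was highest. Pf4 changed by 0.77, 2.40 and 1.39 on day 1, day 3 and day 7 (SE 0.057), all called. Cx3cl1, the neuronal fractalkine, changed by 0.25, 0.27 and 0.20 (SE 0.042), all called, but had -0.34 on day 3 and -0.63 on day 7 without scaling and -0.03 and -0.26 with quantile normalization. The day 1 call of Cx3cl1 was lost without day 1 array 1 (adjusted p = 0.059). Xcl1, a lymphocyte ligand, changed by -1.01 on day 1 and -1.08 on day 7, both called, by 0.41 on day 3, not called, and by -1.49 in day 7 against day 3. The Xcl1 calls were lost on day 1 without any array of normoxia or day 1 (adjusted p up to 0.115) and on day 7 without normoxia array 2 or day 7 array 2 (adjusted p up to 0.0613). Ppbp, another platelet chemokine, was not called.

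Of 15 further receptors, 7 were tested, with 2 higher and 0 lower on day 1, 0 higher and 1 lower on day 3, and 1 higher and 2 lower on day 7. Cx3cr1, the fractalkine receptor of microglia, had levels of 0.65 and 0.97 in normoxia, 0.71 and 0.89 on day 1, then 0.72 and 0.76 on day 3, and 0.08 and 0.05 on day 7. The day 7 arrays lay below all others, and the change there was -0.75 (SE 0.12, adjusted p = 0.0033). Ccrl2 and Cmklr1, an atypical receptor and the chemerin receptor, were not called.

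Of 73 signalling genes, 67 were tested, with 21 higher and 7 lower on day 1, 13 higher and 24 lower on day 3, and 19 higher and 28 lower on day 7. These are 31.3% higher and 10.4% lower on day 1, 19.4% higher and 35.8% lower on day 3, and 28.4% higher and 41.8% lower on day 7. Rasgrp2, which activates Rap1 and is abundant in striatum and platelets, changed by 3.16 on day 1 and by -3.79 in day 3 against day 1. Pik3cd, a leukocyte PI3-kinase subunit, changed by 1.27 and -1.74 in the same comparisons. The day 1 call of Pik3cd was lost without any array of normoxia, day 1 or day 3 (1.20 to 1.33, adjusted p up to 0.144). These are the day 1 arrays with the striatal markers, and the part of that difference was not tested. On day 3, Stat5b changed by -1.75, Prex1, a Rac exchange factor, by -1.43 and Prkcd by -1.36. The Stat5b call on day 3 was lost without normoxia array 2 or day 3 array 2 (-1.29 and -1.47, adjusted p up to 0.084). On day 7, Stat5b was at least 5.44-fold lower (adjusted p = 0.0035), and the adaptor Crk changed by -1.80, the kinase Akt2 by -1.65 and the transcription factor Foxo3 by 1.63.

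Of 24 inducers of chemokine transcription, 20 were tested, with 6 higher and 3 lower on day 1, 8 higher and 5 lower on day 3, and 10 higher and 7 lower on day 7. Il1b, the cytokine that induces many of these chemokines, had levels of -5.63 and -5.71 in normoxia, -4.17 and -4.19 on day 1, then -5.09 and -5.11 on day 3, and -4.96 and -4.93 on day 7. Day 1 was highest and every exposed array lay above normoxia. Il1b changed by 1.49, 0.57 and 0.72 (SE 0.041), all called, and by -0.04 on day 3 and -0.11 on day 7 without scaling. On day 1, when Il1b was highest, Cxcl1 and Ccl2 were lower and Ccl6 and Ccl3 higher than in normoxia.

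Markers of the cells that carry or make chemokines moved as follows. The 15 markers of microglia and brain macrophages gave 7 higher and 1 lower on day 1, 2 higher and 8 lower on day 3, and 5 higher and 6 lower on day 7, with summed levels of 39.7 and 39.8 in normoxia, 43.3 and 43.9 on day 1, then 36.5 and 36.4 on day 3, and 43.9 and 46.4 on day 7. The sum of 10 monocyte and macrophage markers was 15.2 and 14.6 in normoxia, 17.8 and 17.9 on day 1, then 20.1 and 20.4 on day 3, and 21.9 and 22.0 on day 7, and the median change of these markers was -0.01, -0.06 and 0.09. Monocyte calls were 1 higher and 3 lower, 4 higher and 4 lower, and 5 higher and 2 lower on day 1, day 3 and day 7. The 10 tested of 12 T and NK cell markers summed to 0.510 and 0.517 in normoxia, 0.806 and 0.784 on day 1, then 1.06 and 1.07 on day 3, and 0.890 and 0.848 on day 7, with Cd8a on 0 arrays well above background. Their calls were 1 higher and 2 lower on day 1, 1 higher and 2 lower on day 3, and 1 higher and 3 lower on day 7. The 12 red blood cell and platelet markers, which include Pf4 and Ppbp, summed to 125.9 and 139.3 in normoxia, 217.8 and 210.4 on day 1, then 332.9 and 312.5 on day 3, and 393.4 and 374.0 on day 7, with 9, 9 and 10 higher and 0 lower. The sums of the monocyte, red cell and platelet, and astrocyte markers each lay higher at every later time, as Ccl5 did. Those of T and NK cells were highest on day 3, and those of microglia and brain macrophages were lowest on day 3. The astrocyte sums were 225.7 and 248 in normoxia, 256 and 266.8 on day 1, then 271.3 and 269.9 on day 3, and 296.1 and 292.8 on day 7. A relation of any of these sums to Ccl5 was not tested.

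The endothelial markers, 9 tested of 10, summed to 8.49 and 8.74 in normoxia, 27.5 and 27.0 on day 1, then 22.7 and 23.7 on day 3, and 17.6 and 17.4 on day 7, with 6 higher and 0 lower, 5 higher and 2 lower, and 5 higher and 3 lower on day 1, day 3 and day 7. The 12 markers of leptomeninges and fibroblasts summed to 20.1 and 19.9 in normoxia, 8.20 and 8.18 on day 1, then 12.8 and 12.7 on day 3, and 7.47 and 7.30 on day 7, with 11 lower on each day and 1 higher on day 7. Leptomeningeal sums were lower on all days, as Ccl2 and Ccl19 were. Among the exposed groups these sums were highest on day 3, where Ccl19 was also highest but Ccl2 was lowest. Pericyte markers gave 5 higher and 2 lower, 4 higher and 4 lower, and 4 higher and 2 lower of 8, and astrocyte markers 3 higher and 3 lower, 4 higher and 3 lower, and 6 higher and 3 lower of 9 tested. B and plasma cell markers, 4 tested of 8, had none called by limma, with 1 at an unadjusted p under 0.05 on day 1, 1 on day 3 and 0 on day 7, and summed to 0.215 and 0.288 in normoxia and to between 0.219 and 0.271 on the exposed arrays. Hippocampal neuron markers gave 3 higher and 5 lower, 6 higher and 2 lower, and 4 higher and 5 lower of 12 on day 1, day 3 and day 7. Choroid plexus markers gave 3 higher and 4 lower on day 3, and striatal markers 2 higher and 6 lower on day 3 and on day 7. The part of these marker differences in the chemokine results was not tested.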

How the data were processed

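Hippocampal total RNA of 8 rat samples was read on Agilent 1-colour arrays, 2 per group, grouped by the labels. The deposited scanner tables hold, per the file headers, signal intensity (processed, mean and local background) written by Agilent Feature Extraction 11.5.1.1. The deposited series values are in log2 units of unstated scaling. Set against the log2 processed signal minus the 75th percentile of the array, 96.7% to 97.4% of them lay within 0.05 after a constant per array, with medians of -3.53 to -3.23, and they served as an alternative.

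Control spots and outlier spots were left out, and spots of a probe were averaged on the log2 scale. Of 30346 complete probes, 24678 carried the well-above-background flag on the 2 arrays of some group and were kept. For each gene the kept probe that was brightest on average stood for it, giving 21296 genes. One limma 3.58.1 model in R 4.3.3 (two-sided tests, default prior) held a mean per group, with 4 residual degrees of freedom, a prior of 1.22 and a median residual SD of 0.0745. There were 5 comparisons. Day 7 against day 1 was a further contrast of the same model, and among single genes it is given for Cxcl1 and Cxcl12 alone. The procedure was tested on simulated data. Other tools were data.table (version 1.17.8), Python 3.11.15, pandas 2.3.3, numpy 2.4.6 and matplotlib 3.10.9. The number of arrays limits the precision, and the median gap between arrays of the same label was 0.126 to 0.133 for the chemokine genes and 0.0612 to 0.0949 for all genes.

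Alternatives were other scaling (quantile, median, none), normexp with an offset of 50, the authors' values, a looser or stricter filter (none, or all 8 arrays), averaging the probes of a gene, a prior with an intensity trend, fitting 2 groups at a time, blocking on the replicate number, a fold of at least 2, and dropping each array. Array numbers 1 and 2 of different groups were not treated as pairs, and the labels name no pairing. Deviations from the group means correlated at -0.149 to 0.0466, which cannot show whether arrays were paired.

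The chemokine genes and all lists were chosen with earlier results of these data known. All 8 array values are given for the 12 kept genes with the largest called change against normoxia and for a set of well-known ligands and receptors, and further pathway genes are the 4 called ones with the largest change per comparison plus Cx3cl1, Cx3cr1, Pf4, Ppbp, Ccrl2 and Cmklr1. Genes given outside this rule were chosen after their values were seen. Some genes of these families and lists are not reported by name here, and 1 kept receptor enters the counts alone. Symbols and probe positions are those of the array annotation. No genome was used.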

Additional observations from a re-analysis of the deposited data

Results flagged for a closer look

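For 3 genes, changes against normoxia were called in opposite directions at different exposure times, and the difference between the times comes from the same limma model. The genes were picked by calls on the same day arrays against shared normoxia arrays, so these differences follow from that choice and their adjusted p-values are not independent evidence. Cxcl1 was lower than normoxia on day 1 and higher on day 3 and day 7. Its day 3 call did not hold in every fit that left out 1 array, with changes of 0.19 to 0.29. Its day 3 minus day 1 difference was 0.88 (SE 0.051, adjusted p = 0.000242) and its day 7 minus day 1 difference was 1.16 (SE 0.051, adjusted p = 5.26e-05). Cxcl12 was lower on day 1 and higher on day 7, with a day 7 minus day 1 difference of 1.055 (SE 0.036, adjusted p = 3.34e-05). Ccl17 was lower on day 3 and higher on day 7, with a day 7 minus day 3 difference of 0.99 (SE 0.074, adjusted p = 0.000923). The day 3 call of Ccl17 also did not hold in every fit that left out 1 array, with changes of -0.41 to -0.33. Each difference kept its sign without scaling: 0.44 and 0.49 for Cxcl1, 0.38 for Cxcl12 and 0.77 for Ccl17. The opposite directions against normoxia were lost without scaling, where the day 7 changes were -0.31 for Cxcl1, -0.22 for Cxcl12 and -0.21 for Ccl17. For Ccl17, the day 3 change was 0.15 with normexp, and its call was lost with quantile normalization (-0.09, adjusted p = 0.36) and median centring (-0.22, adjusted p = 0.0548). In day 7 against day 1, 62.3% of all genes were called. Day 3 and day 7 lay in the other slide row than day 1, so slide row and time cannot be told apart in the Cxcl1 and Cxcl12 differences. The day 1 arrays carried striatal markers and few choroid plexus markers, and the part of that in the Cxcl1 and Cxcl12 differences was not tested.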

How the results depend on the processing

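There were 4267 recomputed single values, for 36 chemokine genes and 16 pathway genes under 19 settings. Of these, 80 changed sign where the main or the recomputed value was called, and they are the sign changes named below. Of the rest, 3778 kept their side of the threshold, 270 lost the call and 139 gained it. A change of sign where neither value was called counts among the 3778, so direction was not kept in all of them. Depth does not apply to arrays, and signal over background limits the dim genes, whose folds are bounds. The counts of called chemokine genes were 14, 21, 23, 15 and 14 for day 1, day 3 and day 7 against normoxia, day 3 against day 1 and day 7 against day 3. With a fold of at least 2 they were 4, 8, 7, 3 and 2. Normexp gave 9 on day 1, the filter on all 8 arrays 13 on day 3, where fewer genes were tested, and no scaling 9 on day 1 and 9 for day 7 against day 3. Leaving out 1 array gave 8 to 15, 11 to 23, 20 to 24, 10 to 14 and 10 to 14. The day 1 count was 8 without normoxia array 1 and 9 without day 1 array 1, and the day 3 count 13 without normoxia array 2 and 11 without day 3 array 2. With the replicate number as a block the counts were 14, 19, 22, 15 and 12, and the labels link arrays of different groups by that number alone.

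Without scaling between arrays, chosen after seeing the data, signs turned on day 3 for Ccl24 (-0.48), Ccl27 (-0.36), Ccl3 (-0.28), Ccl9 (-0.40), Ccr9 (-0.090), Cxcl1 (-0.37), Cxcl12 (-0.51), Cxcl14 (-0.43), Cxcl16 (-0.26), Cxcr7 (-0.40), Cx3cl1 (-0.34), Foxo3 (-0.34) and Il1b (-0.041). On day 7 they turned for Ccl17 (-0.21), Ccl24 (-0.45), Ccl27 (-0.31), Ccl28 (-0.83), Ccl3 (-0.088), Ccl6 (-0.00014), Ccl9 (-0.56), Ccr9 (-0.29), Cxcl1 (-0.31), Cxcl12 (-0.22), Cxcl14 (-0.27), Cxcl16 (-0.61), Cxcr7 (-0.36), Cx3cl1 (-0.63), Il1b (-0.11) and Rasgrp2 (-0.28), and on day 1 for Cxcl16 (-0.013). In day 3 against day 1 they turned for Ccl19 (-0.39), Ccl27 (-0.090), Ccl9 (-0.37), Cxcl16 (-0.25) and Cxcr7 (-0.057), and in day 7 against day 3 for Ccl5 (-0.049). By construction this setting keeps the fall of the 75th percentile.

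With normexp, signs turned on day 3 for Ccl1 (0.29), Ccl11 (0.30), Ccl12 (0.36), Ccl17 (0.15), Ccl2 (0.058), Ccl25 (0.25), Ccl28 (0.20), Ccl7 (0.23), Ccr10 (0.21), Ccr6 (0.37), Ccr7 (0.37), Cxcl17 (0.37), Cxcl3 (0.39) and Ppbp (0.43). On day 7 they turned for Ccl1 (0.53), Ccl11 (0.45), Ccl12 (0.54), Ccl2 (0.29), Ccl25 (0.48), Ccl4 (0.50), Ccl7 (0.52), Ccr6 (0.36), Ccr7 (0.54), Cxcl11 (0.70), Cxcl17 (0.28), Cxcl2 (0.28), Cxcl3 (0.47), Cxcl9 (0.53), Ccrl2 (0.32), Cmklr1 (0.46), Pik3cd (0.30) and Ppbp (0.54). In day 3 against day 1 they turned for Ccl1 (0.40), Ccl11 (0.25), Ccl17 (0.17), Ccl2 (0.29), Ccl25 (0.36), Ccl3 (0.16), Ccl7 (0.37), Ccr6 (0.35) and Cxcl3 (0.31). With quantile normalization they turned for Cxcl14 on day 3 (-0.018) and Cx3cl1 on day 3 (-0.033) and day 7 (-0.26). The cause was not tested.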
